A study of Homo sapiens with 36 samples.

Results

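Knockdown of STAT3 (STAT3i) was set directly against knockdown of JUNB (JUNBi) in breast epithelial cells transformed by Src. The comparison took the 2 STAT3i and the 2 JUNBi libraries of MCF-10A ER-Src cells under tamoxifen (TAM) by their labels, which are 4 of the 36 RNA-seq libraries in the study, and no control library entered the test. MCF-10A is an immortalised line of human mammary epithelium with basal features. In the ER-Src derivative, used in all of these groups, a chimera of the v-Src kinase and the hormone-binding part of the estrogen receptor stays off until tamoxifen is added. For induction the labels list tamoxifen together with AZD0530, an inhibitor of Src family kinases, and which of the treatment times in the study's methods applies to these RNA-seq libraries is not given in the sources used here. Ethanol (ETH) is the vehicle. The siRNAs were commercial pools (siGENOME SMARTpool), transfected a day before the treatment. The same contrast was also taken in 4 libraries under ETH and in 4 libraries of MDA-MB-231, a triple-negative breast cancer line.

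STAT3 is a latent transcription factor that is phosphorylated by JAK or Src kinases downstream of IL-6-type receptors, forms dimers, and binds spaced palindromes of the form TTCNNNGAA. It turns on acute phase genes and also its own inhibitor SOCS3. JUNB pairs with FOS proteins to form AP-1, which binds TGANTCA and controls genes of growth, adhesion and matrix turnover. In Src-transformed breast cells both factors belong to the inflammatory network that maintains the transformed state, and the study examined them as partners of YAP and TAZ.

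STAT3i and JUNBi libraries under TAM held 13756191 to 16544192 expected counts, and RSEM's effective gene lengths fell short of the full ones by the same 49.0 bases in all 4, so read length was alike in both groups. Nothing in the labels says that the 2 libraries of a group came from separate cultures, and p-values therefore measure the spread between these libraries. Basal markers were expressed above luminal ones as a sum, though luminal markers were present too. KRT5, a basal keratin, was at 1885 and 2049 TPM, the per-length unit of RSEM, in STAT3i and 1245 and 1130 TPM in JUNBi. ESR1 was at 105 and 189 TPM in STAT3i and 152 and 137 TPM in JUNBi, and reads of the receptor part of the ER-Src transgene would be counted there. The 8 basal markers summed to 3773 and 4018 TPM in STAT3i and 3361 and 3171 TPM in JUNBi. The 6 luminal markers, ESR1 among them, summed to 309.2 and 380.2 TPM in STAT3i and 401.5 and 358.2 TPM in JUNBi. PTPRC, the pan-leukocyte marker, was listed at 0 in all 4 libraries. COL1A1, a fibroblast collagen, was at 0.38 and 0.52 TPM in STAT3i and 0.25 and 0.24 TPM in JUNBi, and PECAM1, an endothelial marker, at 0.25 and 0.09 TPM in STAT3i and 0.78 and 0.68 TPM in JUNBi. In bulk RNA a change in the share of a cell type and a change in RNA per cell cannot be told apart. Levels of the 2 control siRNA libraries (Ctrli) under TAM are given beside the results without a test. Their reads differed slightly in length, since effective gene lengths fell short by 49.49 bases in Ctrli against 49.0 in the knockdowns. Over all genes tested the median control level was 0.36 below STAT3i and 0.20 below JUNBi on the log2(TPM + 0.1) scale. Gaps of this size between Ctrli and a knockdown therefore carry no reading, and their cause was not tested.

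Of the targeted genes only STAT3 differed between the knockdowns under TAM. STAT3 (chromosome 17, 42313324 to 42388540, minus strand, GRCh38) was at 8.67 and 7.8 TPM in STAT3i and 57.8 and 50.7 TPM in JUNBi, with 44.1 and 33.8 TPM in Ctrli. The log2 difference, STAT3i minus JUNBi here and throughout, was -2.92 (SE 0.14, adjusted p = 5.0e-92, DESeq2). The groups were far apart. JUNB (chromosome 19, 12791486 to 12793315, plus strand) was at 14.4 and 14.9 TPM in STAT3i and 16.4 and 18.9 TPM in JUNBi, against 54.4 and 71 TPM in Ctrli. JUNB RNA was thus below both Ctrli libraries in each knockdown. Between the knockdowns the log2 difference was -0.37 (SE 0.20, adjusted p = 0.33), which did not pass the test and does not show that the levels were the same. Under TAM the contrast therefore set cells low in both STAT3 and JUNB RNA against cells low in JUNB RNA. Elsewhere JUNB was less alike in the 2 knockdowns. Under ETH it was at 7.97 and 16.5 TPM in STAT3i and 3.9 and 8.55 TPM in JUNBi (log2 difference 0.93, SE 0.46, adjusted p = 0.4), and in MDA-MB-231 at 19.5 and 23.8 TPM in STAT3i and 6.7 and 7.99 TPM in JUNBi (log2 difference 1.69, SE 0.25, adjusted p = 2.6e-09). STAT3 was lower in STAT3i in both of these settings too, with log2 differences of -2.11 under ETH and -2.64 in MDA-MB-231 (adjusted p = 4.1e-12 and 7.8e-25).

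**Figure D1:**
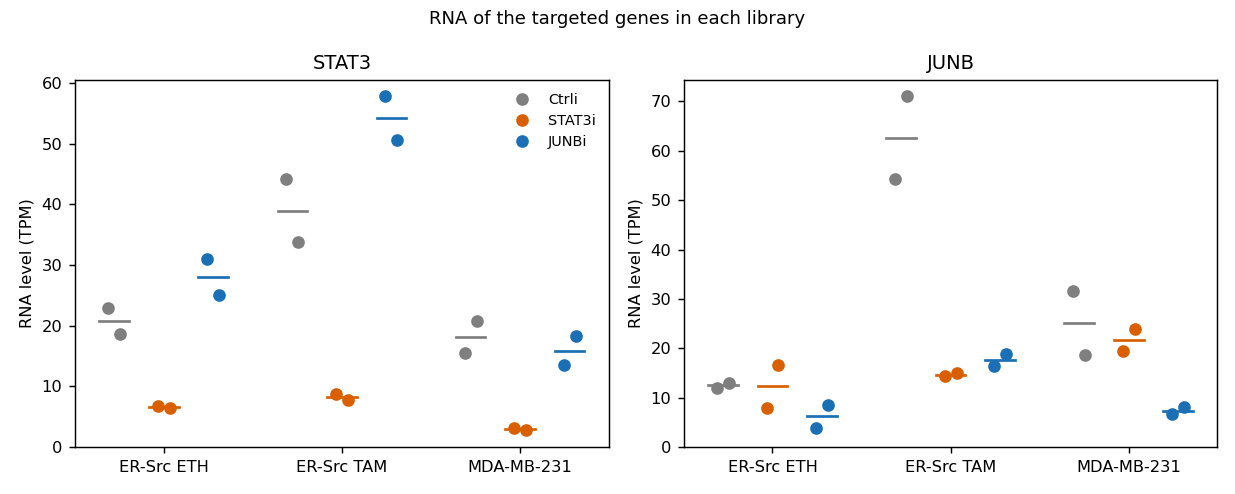
RNA level in TPM (vertical axes, linear from 0) of STAT3 on the left and JUNB on the right, for each library of Ctrli, STAT3i and JUNBi in ER-Src under ETH, ER-Src under TAM and MDA-MB-231. Points are libraries and short lines are means of 2. STAT3 is low only in STAT3i, while under TAM the JUNB points of STAT3i (14.4 and 14.9) and JUNBi (16.4 and 18.9) lie side by side and far below those of Ctrli.

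Of 15506 genes with an adjusted p under TAM, 473 were higher in STAT3i (3.05%) and 455 were lower (2.93%) at an adjusted p under 0.01. The differences downward were the larger. At least 4-fold differences were fitted for 133 of the lower and 90 of the higher genes, and at least 8-fold for 66 and 32. The median size of the log2 difference was 1.26 among the lower and 0.96 among the higher genes. By annotation 408 of the lower and 432 of the higher genes were protein-coding, and 26 and 14 were long noncoding RNAs. With any 1 of the 4 libraries left out the total of 928 fell to between 406 and 461, with the lone library assumed to vary like the other group.

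Control levels lay unevenly around the called genes. By TPM the Ctrli mean was nearer JUNBi for 364 of the 473 higher genes (77.0%) and nearer STAT3i for 109 (23.0%). For the 455 lower genes it was nearer JUNBi for 245 (53.8%) and nearer STAT3i for 210 (46.2%), while over all genes tested it was nearer JUNBi for 60.8%. These shares are descriptions, since Ctrli levels were shifted as a whole.

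Secreted acute phase and innate defence proteins led the genes that were lower in STAT3i. LTF, which encodes the iron-binding antimicrobial protein lactoferrin, had 8 and 1 counts in the STAT3i libraries and 1828 and 1985 in JUNBi, or 0.14 and 0.01 against 27.8 and 24.3 TPM (log2 difference -8.79, SE 0.51, adjusted p = 1.7e-63). HP, the haemoglobin scavenger haptoglobin, had 13 and 5 counts against 574 and 728, or 0.63 and 0.19 against 17 and 17.2 TPM (log2 difference -6.25, SE 0.42, adjusted p = 3.6e-48). These 2 genes were close to silent in STAT3i and well expressed in JUNBi. Ctrli lay between the knockdowns, at 1.01 and 0.81 TPM for LTF and 5.23 and 3.62 TPM for HP. Part of each gap is thus that JUNBi stood above Ctrli. SAA2, a serum amyloid A protein, was at 209 and 154 TPM in STAT3i and 3572 and 3307 TPM in JUNBi (log2 difference -4.33, SE 0.16, adjusted p = 8.6e-167). Its reads can be shared with the near-identical SAA1, so the split between both genes is uncertain. SERPINA3, the antiprotease alpha-1-antichymotrypsin, was at 30.3 and 15.7 TPM in STAT3i and 424 and 420 TPM in JUNBi (log2 difference -4.51, SE 0.44, adjusted p = 3.8e-22), and an annotated same-strand gene overlaps its exons. LRG1, a leucine-rich acute phase glycoprotein, was at 0.18 and 0.25 TPM in STAT3i and 7.66 and 6.32 TPM in JUNBi (log2 difference -4.73, SE 0.35, adjusted p = 2.4e-39). CHI3L1, a chitinase-like glycoprotein of inflamed tissue, was at 1.98 and 1.03 TPM in STAT3i and 35.8 and 38.8 TPM in JUNBi (log2 difference -4.89, SE 0.61, adjusted p = 1.1e-13). That the groups did not overlap in these genes was required by the rule that chose them. It also held for all 473 higher and all 455 lower genes. The share over all genes tested was not counted, so this adds no support to the calls.

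S100A8 and S100A9, the subunits of the antimicrobial protein calprotectin, were abundant and also lower in STAT3i. S100A8 was at 128 and 42.1 TPM in STAT3i and 1194 and 941 TPM in JUNBi, and S100A9 at 224 and 92 TPM in STAT3i and 1893 and 1636 TPM in JUNBi. Both differed at the threshold with all libraries (-3.72 and -3.56, SE 0.73 and 0.61, adjusted p = 1.4e-05 and 2.9e-07). They were not called without JUNBi replicate 1 (adjusted p = 0.072 and 0.018) or without JUNBi replicate 2 (0.062 and 0.023). In both genes STAT3i replicate 1 was well above replicate 2. SERPINB4, an epithelial protease inhibitor whose reads can be shared with SERPINB3, behaved alike, at 22.3 and 8.72 TPM in STAT3i and 206 and 142 TPM in JUNBi (-3.61, adjusted p = 1.2e-06, but 0.042 and 0.019 without JUNBi replicate 1 and 2). The others of the leading 12 were ELF3, an epithelial ETS factor (1.6 and 0.49 against 24.2 and 21.2 TPM, -4.17), RARRES1, a retinoid-responsive membrane protein (0.54 and 0.31 against 9.02 and 7.19 TPM, -3.89), and CNGB1, a subunit of cyclic nucleotide-gated channels (0.18 and 0.11 against 2.22 and 2.17 TPM, -5.19). In 11 of these 12 genes STAT3i replicate 1 was above replicate 2, with a median ratio of 2.19, whereas JUNBi replicate 1 stood at a median of 1.14 times replicate 2. Both STAT3i libraries were below both Ctrli libraries in all 12 genes, and both JUNBi libraries were above both Ctrli libraries in 9 of the 12. The 12 were picked for the largest gap between the knockdowns, so these counts only describe them. Over all genes tested the Ctrli mean lay below both knockdown means for 57.7%. That share is of means, and no share by single libraries was counted over all genes.

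**Figure D2:**
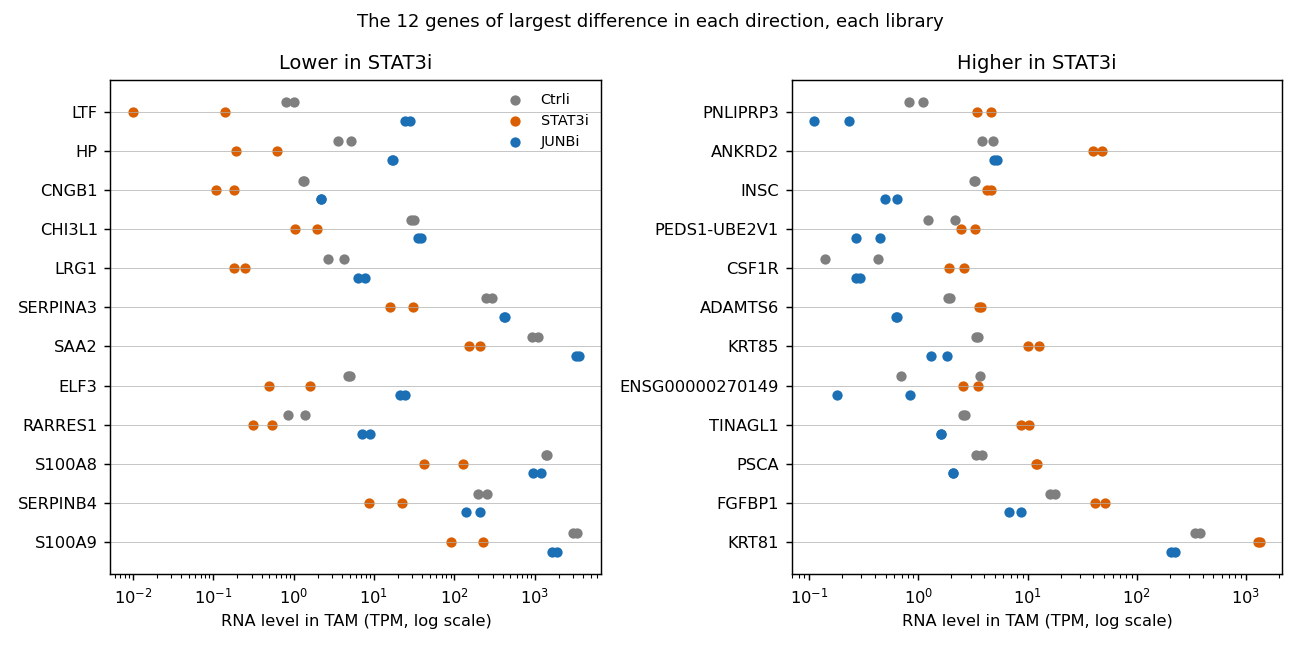
RNA level under TAM in TPM (horizontal axes, log scale) of the 12 protein-coding genes with the largest difference in each direction, lower in STAT3i on the left and higher in STAT3i on the right. Each point is 1 library of Ctrli (grey), STAT3i (orange) or JUNBi (blue). On the left JUNBi points mostly lie beyond Ctrli, as for SAA2 (3572 and 3307 against 1108 and 930), and on the right STAT3i points mostly do, as for KRT81 (1284 and 1348 against 341 and 380).

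The list of acute phase and innate defence genes was mostly lower in STAT3i as well. It includes leading genes described above, such as LTF and SAA2, so its count and median partly restate them. Numbers in square brackets after a count are its range when each of the 4 libraries was left out in turn. Every list count under TAM, here and below, stands beside 2.93% lower and 3.05% higher over all genes tested. Of 14 members tested under TAM, 11 [9 to 10] were lower in STAT3i and 0 [0] were higher, with a median log2 difference of -3.06 against 0.01 over all genes tested. ORM1 had 0 counts in both STAT3i libraries, and with it set at the bound given by 3 counts per library the median was -2.83. Complement genes overlapped with this list in C3 and CFB. Of 14 complement factors and regulators tested, 8 [5 to 6] were lower in STAT3i and 0 [0] were higher, with a median of -0.83. CFB, complement factor B of the alternative pathway, was at 12.5 and 9.36 TPM in STAT3i and 88.8 and 83.4 TPM in JUNBi (log2 difference -3.24, SE 0.17, adjusted p = 2.6e-81), although an annotated read-through gene shares its exons. C1R and C1S, the proteases of the C1 complex, differed by -2.55 (SE 0.17) and -2.41 (SE 0.17). C1R was at 13.7 and 11.1 TPM against 66.8 and 65.1 TPM, and C1S at 7.35 and 4.97 TPM against 31 and 25.9 TPM. C3, the central component, was at 91.7 and 112 TPM in STAT3i and 296 and 261 TPM in JUNBi (log2 difference -1.61, SE 0.12, adjusted p = 2.5e-36), and here STAT3i lay close to Ctrli (114 and 71.9 TPM). Both JUNBi libraries of C3 were above all STAT3i and Ctrli libraries under TAM.

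Of the feedback and target genes of STAT3, more were lower than higher. Of 29 members tested, 14 [10 to 13] were lower in STAT3i and 2 [0] were higher, with a median of -0.57. STAT3 itself, the target of the siRNA, is a member of this list and one of those counted as lower. SOCS3, the inhibitor of JAK kinases that STAT3 induces, was at 4.43 and 3.26 TPM in STAT3i, 39.5 and 35.9 TPM in JUNBi and 43.1 and 40.2 TPM in Ctrli (log2 difference -3.37, SE 0.18, adjusted p = 1.3e-78). The JUNBi libraries of SOCS3 lay at the control level. BCL6, a transcriptional repressor, was at 4.74 and 4.52 TPM in STAT3i and 15.6 and 13.1 TPM in JUNBi (log2 difference -1.75, SE 0.19, adjusted p = 1.2e-18), and BCL3, a nuclear partner of NF-kB p50 and p52, at 1.3 and 1.09 TPM in STAT3i and 3.99 and 3.08 TPM in JUNBi (log2 difference -1.95, SE 0.42, adjusted p = 1.1e-04). BCL3 was not called when any 1 library was left out (largest adjusted p = 0.16). VEGFA, the endothelial growth factor, was at 15.2 and 13.7 TPM against 22.9 and 21 TPM (log2 difference -0.97, SE 0.16, adjusted p = 3.1e-08). Among the 7 STAT family genes tested, only STAT3 itself was called at the threshold.

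Genes that led on the higher side in STAT3i were of mixed function. PNLIPRP3, a lipase-related protein, was at 4.6 and 3.44 TPM in STAT3i and 0.23 and 0.11 TPM in JUNBi (log2 difference 4.52, SE 0.43, adjusted p = 4.5e-23). ANKRD2, an ankyrin repeat protein of stretched muscle, was at 40 and 47.6 TPM in STAT3i and 4.87 and 5.23 TPM in JUNBi (log2 difference 3.02, SE 0.20, adjusted p = 1.2e-49). CSF1R, the receptor of colony-stimulating factor 1 and also a leukocyte marker, was at 2.59 and 1.89 TPM in STAT3i and 0.29 and 0.27 TPM in JUNBi (log2 difference 2.81, SE 0.39, adjusted p = 4.2e-11), while PTPRC and 1 other of the 5 leukocyte markers were at 0 in all 4 libraries. Summed over the 5 markers the level was 7.11 and 6.67 TPM in STAT3i and 6.69 and 4.85 TPM in JUNBi. FGFBP1, which releases fibroblast growth factors from the matrix, was at 51.3 and 41.1 TPM against 8.66 and 6.68 TPM (log2 difference 2.52, SE 0.18, adjusted p = 8.4e-43). KRT81, a hair keratin whose reads can be shared with its close paralogs, was the most abundant of these 12, at 1284 and 1348 TPM in STAT3i, 207 and 222 TPM in JUNBi and 341 and 380 TPM in Ctrli (log2 difference 2.52, SE 0.15, adjusted p = 4.8e-60). KRT85, another hair keratin, differed by 2.74 (SE 0.38). INSC, an adaptor of spindle orientation (4.22 and 4.63 against 0.49 and 0.63 TPM, 2.92), ADAMTS6, a metalloprotease (3.74 and 3.56 against 0.62 and 0.64 TPM, 2.75), and TINAGL1, a matricellular protein (8.65 and 10.2 against 1.6 and 1.6 TPM, 2.58), had both JUNBi libraries below both Ctrli libraries. PSCA, a surface antigen anchored by a lipid, differed by 2.56, and JRK overlaps its exons on the other strand. PEDS1-UBE2V1 (2.87) and ENSG00000270149 (2.60) share their exons with neighbouring genes and are uncertain, and the latter was not called without STAT3i replicate 1 (adjusted p = 0.056) or replicate 2 (0.36). In these 12 genes both STAT3i libraries were above both Ctrli libraries in 11, and both JUNBi libraries were below both Ctrli libraries in 9. These 12 too were picked for the largest gap, so the counts only describe them. The Ctrli mean lay below both knockdown means for 57.7% of all genes tested, which again is a share of means and not of single libraries.

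Promoters of the named genes were read for the letters that STAT3 and AP-1 dimers bind. The windows are those of RefSeq on GRCh38.p14, from 250 bases before to 50 bases after the start of a gene. Both TTCNNNGAA and TGANTCA read the same on either strand, and a window with both was counted for each. Of the 121 named genes 91 had a window, and of the 23 among these that were leading genes or named members of the STAT3 and AP-1 target lists, 6 held a match. They are printed 5′ to 3′ on the strand of the gene, with the matches in capitals, because they show where the letters stand relative to the start.
LRG1 (chr19:4539987-4540286, minus strand): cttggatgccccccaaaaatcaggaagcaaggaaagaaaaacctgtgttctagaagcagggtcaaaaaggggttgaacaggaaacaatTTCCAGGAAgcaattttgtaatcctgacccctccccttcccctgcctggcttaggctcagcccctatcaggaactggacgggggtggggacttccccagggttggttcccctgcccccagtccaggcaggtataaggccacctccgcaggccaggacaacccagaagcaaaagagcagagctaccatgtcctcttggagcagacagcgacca
BCL6 (chr3:187745419-187745718, minus strand): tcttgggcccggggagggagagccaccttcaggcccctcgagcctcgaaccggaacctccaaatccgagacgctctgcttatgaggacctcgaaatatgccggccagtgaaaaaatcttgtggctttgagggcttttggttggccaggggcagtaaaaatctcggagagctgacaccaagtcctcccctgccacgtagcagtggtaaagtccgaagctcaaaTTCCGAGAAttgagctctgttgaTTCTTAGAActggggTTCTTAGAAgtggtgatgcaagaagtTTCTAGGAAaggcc
PNLIPRP3 (chr10:116427597-116427896, plus strand): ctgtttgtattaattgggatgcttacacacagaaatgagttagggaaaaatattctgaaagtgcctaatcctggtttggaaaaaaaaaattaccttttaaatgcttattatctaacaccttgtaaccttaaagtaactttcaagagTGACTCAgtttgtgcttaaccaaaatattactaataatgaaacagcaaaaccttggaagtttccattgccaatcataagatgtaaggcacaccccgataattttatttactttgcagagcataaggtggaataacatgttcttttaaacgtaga
INSC (chr11:15112174-15112473, plus strand): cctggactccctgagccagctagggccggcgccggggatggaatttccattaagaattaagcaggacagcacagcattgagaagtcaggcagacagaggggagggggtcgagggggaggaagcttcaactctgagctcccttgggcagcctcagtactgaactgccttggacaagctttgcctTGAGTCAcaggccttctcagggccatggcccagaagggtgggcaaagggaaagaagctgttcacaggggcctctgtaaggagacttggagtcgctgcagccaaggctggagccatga
CSF1R (chr5:150113316-150113615, minus strand): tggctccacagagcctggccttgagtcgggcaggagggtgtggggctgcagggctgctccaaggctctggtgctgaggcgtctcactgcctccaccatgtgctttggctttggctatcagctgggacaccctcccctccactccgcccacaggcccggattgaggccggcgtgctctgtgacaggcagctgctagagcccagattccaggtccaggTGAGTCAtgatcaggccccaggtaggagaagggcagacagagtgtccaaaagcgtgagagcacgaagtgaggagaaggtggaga
EZR (chr6:158818186-158818485, minus strand): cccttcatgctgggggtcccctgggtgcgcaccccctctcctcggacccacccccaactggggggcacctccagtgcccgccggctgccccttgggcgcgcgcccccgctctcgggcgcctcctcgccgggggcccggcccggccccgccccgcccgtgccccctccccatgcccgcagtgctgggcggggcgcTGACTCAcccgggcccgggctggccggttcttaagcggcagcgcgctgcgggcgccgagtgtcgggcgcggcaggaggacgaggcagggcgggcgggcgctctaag
LRG1 and BCL6, both lower in STAT3i, held TTCNNNGAA. In LRG1 it began 162 bases before the start, and BCL6 held 4 such matches, which began 28 and 5 bases before the start and 10 and 36 bases into the gene. The other 4 genes were higher in STAT3i and held TGANTCA, which began 104 bases before the start in PNLIPRP3, 67 in INSC, 34 in CSF1R and 56 in EZR, which encodes the membrane linker ezrin. EZR differed by 0.58 (adjusted p = 1.2e-04), a call that was lost when any 1 library was left out (smallest adjusted p = 0.011).

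TGANTCA was held by 7.76% of all 27305 promoters and by 4.81% of the 10809 promoters of genes tested. It was held by 36 of 354 promoters of genes higher in STAT3i (10.2%) and by 17 of 320 of the lower genes (5.31%). Among genes at least 4-fold higher it was held by 11 of 47 (23.4%), and among genes at least 4-fold lower by 4 of 82 (4.88%). TTCNNNGAA was held by 7.88% of all promoters, 6.40% of those tested, 25 of the higher genes (7.06%) and 28 of the lower genes (8.75%), with 9 of 82 among genes at least 4-fold lower (11%) and 1 of 47 among genes at least 4-fold higher (2.13%). These are counts of letters in a short window and no test was made of them.

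Some AP-1 subunits were lower in STAT3i. Of 13 AP-1 family genes tested, 3 [2] were lower and 0 [0] were higher, against 2.93% lower and 3.05% higher over all genes. FOS, a partner of JUNB, was at 4.91 and 3.37 TPM in STAT3i and 11.3 and 12.9 TPM in JUNBi, and at 32.7 and 33.5 TPM in Ctrli (log2 difference -1.87, SE 0.25, adjusted p = 1.9e-11). It was thus below control in both knockdowns and lowest in STAT3i. FOSL2 was at 7.95 and 9.79 TPM in STAT3i and 19.1 and 16.8 TPM in JUNBi (log2 difference -1.22, SE 0.16, adjusted p = 6.5e-13). In the list of 13 AP-1 target genes tested 1 [0] was higher and 1 [1] was lower, and SPP1, the secreted matrix protein osteopontin, was the lower one with 5 and 2 counts in STAT3i and 115 and 112 in JUNBi (log2 difference -5.09, SE 0.71, adjusted p = 6.6e-11). MMP1, a collagenase and classical AP-1 target, was at 0.05 and 0.07 TPM in STAT3i and 0.02 and 0.01 TPM in JUNBi, too low for an adjusted p.

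Cytokine genes differed in both directions. Of 15 IL-6 and IL-1 family cytokines and receptors tested, 6 [4 to 6] were lower in STAT3i and 2 [1] were higher. IL6 itself had 4 and 1 counts in STAT3i and 87 and 76 in JUNBi, or 0.17 and 0.05 against 3.69 and 2.86 TPM, with 0.11 and 0.12 TPM in Ctrli (log2 difference -5.10, SE 0.84, adjusted p = 7.5e-08). STAT3i lay at the low level of Ctrli, and both JUNBi libraries stood above it. IL1B, the inflammatory cytokine interleukin-1 beta, was the reverse, at 36.1 and 33.7 TPM in STAT3i, 6.97 and 5.13 TPM in JUNBi and 31.6 and 28.8 TPM in Ctrli (log2 difference 2.45, SE 0.18, adjusted p = 4.5e-38). IL1R1, its receptor, was at 2.97 and 2.61 TPM against 10.9 and 7.01 TPM (log2 difference -1.97, SE 0.18, adjusted p = 1.6e-24). IL24, a cytokine of the IL-10 family, was below Ctrli (216 and 180 TPM) in both knockdowns, at 16.2 and 13.1 TPM in STAT3i and 70.5 and 46.2 TPM in JUNBi (log2 difference -2.07, SE 0.17, adjusted p = 3.8e-30), and FCMR overlaps its exons on the other strand.

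Chemokines showed the same division. Of 12 chemokines and receptors tested, 5 [3 to 5] were lower in STAT3i and 1 [1] was higher. The higher one was CXCL8, which draws neutrophils, at 24.8 and 15.9 TPM in STAT3i and 7.2 and 5.02 TPM in JUNBi (log2 difference 1.75, SE 0.23, adjusted p = 9.3e-12). CCL20, which attracts CCR6-bearing cells, was at 40.1 and 28.7 TPM in STAT3i and 122 and 75.3 TPM in JUNBi (log2 difference -1.63, SE 0.19, adjusted p = 1.3e-15), and CXCL2, which also draws neutrophils, at 13.1 and 13.8 TPM in STAT3i and 30.7 and 23.2 TPM in JUNBi (log2 difference -1.18, SE 0.18, adjusted p = 7.8e-09). Of 15 NF-kB subunits, inhibitors and responsive genes 4 [2] were lower in STAT3i and 0 [0] were higher. NFKB1, the p50 precursor, was at 12 and 11.7 TPM in STAT3i and 11.9 and 9.36 TPM in JUNBi (log2 difference -0.15, SE 0.16, adjusted p = 0.77). Among the lower ones, TNFAIP2, a TNF-induced protein, was at 5.82 and 6.44 TPM against 20.4 and 18.6 TPM (log2 difference -1.81, SE 0.17, adjusted p = 2.9e-24), and BIRC3, an inhibitor of apoptosis, at 21.4 and 18 TPM against 61.4 and 39.5 TPM (log2 difference -1.37, SE 0.17, adjusted p = 6.2e-14). BIRC3 in STAT3i was at the level of Ctrli (22.9 and 21.8 TPM).

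More basal markers were called higher than lower in STAT3i by DESeq2, and edgeR called 3 higher and 0 lower. KRT5 differed by only 0.47 (SE 0.13, adjusted p = 0.0064), and edgeR did not call it (adjusted p = 0.12). Of 8 basal mammary markers 5 [2 to 3] were higher and 1 [0 to 1] was lower. KRT14, the partner of KRT5, was at 136 and 140 TPM in STAT3i and 65.2 and 66.5 TPM in JUNBi (log2 difference 0.97, SE 0.15, adjusted p = 1.3e-08), both below Ctrli (221 and 217 TPM). TP63, the transcription factor of basal epithelium, was at 3.91 and 3.07 TPM in STAT3i and 1.57 and 1 TPM in JUNBi (log2 difference 1.43, SE 0.28, adjusted p = 1.7e-05), but was not called without STAT3i replicate 1 (adjusted p = 0.064) or JUNBi replicate 2 (0.024). Among 14 keratins tested 4 [3 to 4] were higher and 4 [1 to 3] lower. KRT15, a keratin of basal progenitors, was at 76.6 and 51 TPM in STAT3i, 10.2 and 12.1 TPM in JUNBi and 7.37 and 8.04 TPM in Ctrli (log2 difference 2.39, SE 0.22, adjusted p = 5.5e-26). KRT6B, a keratin of activated epithelium that can share reads with KRT6A and KRT6C, was lower in STAT3i, at 4.81 and 5.03 TPM against 13.5 and 12.9 TPM (log2 difference -1.51, SE 0.19, adjusted p = 2.6e-13). S100 genes split as well. Of 13 tested, 3 [2] were higher and 3 [0 to 2] lower. S100A2, a p63-responsive basal gene, was at 1566 and 1606 TPM in STAT3i and 562 and 505 TPM in JUNBi (log2 difference 1.49, SE 0.12, adjusted p = 1.5e-30), against S100A8 and S100A9 in the other direction. None of 8 cornified envelope genes tested was called.

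Genes of the basement membrane went both ways. LAMA3, which encodes a chain of laminin-332, was at 77.1 and 73.4 TPM in STAT3i and 28.8 and 24.5 TPM in JUNBi (log2 difference 1.5, SE 0.12, adjusted p = 5.1e-32). COL17A1, the hemidesmosome collagen, was at 72.7 and 68.4 TPM in STAT3i and 28.5 and 25.9 TPM in JUNBi (log2 difference 0.97, SE 0.13, adjusted p = 9.7e-12). Of 22 collagens and basement membrane genes tested, 5 [3 to 4] were higher and 2 [1 to 2] lower. The median was 0.11. TNC, the stress-induced matrix protein tenascin-C, was on the lower side, at 1.53 and 1.83 TPM in STAT3i and 11.5 and 10.5 TPM in JUNBi with 25.9 and 22.6 TPM in Ctrli (log2 difference -2.86, SE 0.18, adjusted p = 8.1e-54). Of 15 integrins 4 [2 to 3] were higher and 1 [1] was lower. ITGB1, the common beta 1 chain, differed by 1.00 (SE 0.14) and ITGB5 by 1.00 (SE 0.17). The lower one was ITGB6, a beta chain of wounded epithelium, at 7.41 and 6.26 TPM against 17.1 and 12.9 TPM (log2 difference -1.29, SE 0.18, adjusted p = 9.5e-11). Among 20 matrix proteases and inhibitors 4 [2 to 3] were higher and 3 [2 to 3] lower. SERPINE2, a serpin that inhibits thrombin and plasminogen activators, was on the lower side, at 3.06 and 2.94 TPM in STAT3i and 11.4 and 9.97 TPM in JUNBi (log2 difference -2.11, SE 0.23, adjusted p = 2.5e-17).

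Genes of the Hippo and growth factor pathways were divided in direction. Of 22 YAP/TAZ target genes 6 [2] were higher and 4 [1 to 3] lower. NT5E, an ectonucleotidase, differed by 1.25 and AJUBA, a LIM protein that binds LATS kinases, by 1.23 (SE 0.15 and 0.17). TGFB2, the ligand transforming growth factor beta 2, was at 1.88 and 1.3 TPM in STAT3i and 12.5 and 8.35 TPM in JUNBi (log2 difference -2.54, SE 0.25, adjusted p = 8.6e-23), and a same-strand transcript overlaps its exons. CCN1, a matricellular YAP target, differed by 0.69 (adjusted p = 1.5e-04), a call lost when any 1 library was left out (largest adjusted p = 0.054). Of 23 TGF-beta ligands, receptors and responsive genes 5 [3 to 4] were higher and 1 [1] was lower, among them TGFBI, a secreted adhesion protein, at 692 and 725 TPM against 321 and 277 TPM (log2 difference 1.16, SE 0.12, adjusted p = 1.5e-19). SNAI2, the repressor Slug, was at 10.8 and 10.4 TPM in STAT3i and 3.94 and 2.87 TPM in JUNBi (log2 difference 1.59, SE 0.21, adjusted p = 1.3e-12), while CDH1, the E-cadherin gene, differed by 0.03 (SE 0.15, adjusted p = 0.98). Of 16 genes of the epithelial-mesenchymal transition 2 [2] were higher and 2 [1] lower. EGFR was at 12.2 and 16.8 TPM in STAT3i and 8.45 and 6.46 TPM in JUNBi (log2 difference 0.82, SE 0.16, adjusted p = 1.4e-05), a call lost without STAT3i replicate 2 (adjusted p = 0.033) or JUNBi replicate 2 (0.011). Among 11 EGF receptors and ligands 2 [0 to 2] were higher, among 17 MAPK feedback genes 2 [0], and among 14 contractile and SRF target genes 2 [1]. No member of these 3 lists was called lower by DESeq2 or edgeR. EPGN, an EGFR ligand, differed by 0.87 and DUSP5, a nuclear ERK phosphatase, by 0.87 (SE 0.16 and 0.19). EPGN was not called without STAT3i replicate 1 (adjusted p = 0.02) or JUNBi replicate 2 (0.013), and DUSP5 was not called when any 1 library was left out (smallest adjusted p = 0.016). DUSP6, the cytoplasmic ERK phosphatase, differed by 0.23 (SE 0.22, adjusted p = 0.71).

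Metallothioneins, small proteins that bind zinc and copper, were lower in STAT3i as a group. Of 5 tested, 4 [4] were lower and 0 [0] were higher, with a median of -2.25. MT1X was at 122 and 112 TPM in STAT3i, 970 and 929 TPM in JUNBi and 935 and 948 TPM in Ctrli (log2 difference -3.12, SE 0.14, adjusted p = 2.8e-104). MT1F was at 4.5 and 3.84 TPM in STAT3i and 25.1 and 22.4 TPM in JUNBi (log2 difference -2.25, SE 0.28, adjusted p = 7.5e-14), MT1E differed by -1.44 (SE 0.13) and the abundant MT2A, at 1019 and 1096 TPM in STAT3i and 2117 and 2068 TPM in JUNBi, by -1.08 (SE 0.14). Reads of MT1 genes can be shared among paralogs.

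Interferon-stimulated genes did not move as 1 group. Of 35 tested 5 [1 to 3] were higher and 5 [2 to 5] lower. IFIT1, which binds viral RNA, was at 8.78 and 5.13 TPM in STAT3i and 1.27 and 1.18 TPM in JUNBi (log2 difference 2.37, SE 0.32, adjusted p = 5.4e-12). IFITM2 and IFITM3, near-identical membrane proteins that restrict viral entry, were lower in STAT3i. IFITM3 was at 132 and 135 TPM against 290 and 339 TPM and 413 and 367 TPM in Ctrli (log2 difference -1.39, SE 0.16, adjusted p = 2.8e-15), with no call without STAT3i replicate 2 (adjusted p = 0.03), and IFITM2 differed by -1.31 (SE 0.17). Of 15 class I antigen presentation genes 3 [0 to 2] were lower and 0 [0] were higher. TAP1, a peptide transporter, differed by -0.70 and HLA-B by -0.67. TAP1 and HLA-B each kept the call only without JUNBi replicate 1.

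More redox genes were higher than lower in STAT3i. Of 19 NRF2 and glutathione genes 6 [3 to 4] were higher and 1 [0] was lower, with a median of 0.38. AKR1C1, an aldo-keto reductase, was at 21.3 and 18.8 TPM in STAT3i and 6.22 and 5.2 TPM in JUNBi (log2 difference 1.88, SE 0.21, adjusted p = 1.1e-16), and AKR1C paralogs can share its reads. GCLC, the catalytic subunit that makes the glutathione precursor, differed by 0.92 (SE 0.15) and the quinone reductase NQO1 by 0.78 (SE 0.14). SLC3A2, the heavy chain of amino acid transporters, was at 210 and 212 TPM in STAT3i and 83.6 and 61 TPM in JUNBi (log2 difference 1.59, SE 0.13, adjusted p = 8.7e-32). In the list of 22 ATF4 and unfolded protein response genes 3 [1 to 2] were higher and 1 [0] lower, with ATF4 itself at -0.21 (adjusted p = 0.45). The cystine transporter SLC7A11 differed by 0.97 (SE 0.19) and was not called without STAT3i replicate 1 (adjusted p = 0.036), STAT3i replicate 2 (0.011) or JUNBi replicate 2 (0.027). Of 22 glycolysis and hypoxia-response genes 4 [1] were higher and 4 [4] lower. Their median was 0.07. On the lower side STC1, the secreted glycoprotein stanniocalcin-1, was at 2.29 and 1.22 TPM against 6.7 and 5.21 TPM (log2 difference -1.85, SE 0.26, adjusted p = 1.1e-10), and the vasodilator precursor ADM at 12.5 and 13.2 TPM against 26 and 25.2 TPM (log2 difference -1.26, SE 0.17, adjusted p = 4.2e-11). PFKP, the platelet phosphofructokinase, was on the higher side (0.96, SE 0.15).

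Among proliferation genes, few passed the test under TAM. The counts for mitosis genes and for cholesterol and fatty acid synthesis genes lie near the shares over all genes (3.05% higher, 2.93% lower). Of 30 DNA replication genes none was called by DESeq2 or edgeR, and their median was 0.10. Of 26 mitosis genes 1 [0] was higher and 0 [0] were lower, with a median of 0.28. The one called was the securin gene PTTG1 (0.50, adjusted p = 0.008), which was not called by edgeR (adjusted p = 0.038) or when any 1 library was left out (smallest adjusted p = 0.094). MKI67, the proliferation marker, was at 12.8 and 12.2 TPM in STAT3i and 9.38 and 8.67 TPM in JUNBi (log2 difference 0.38, SE 0.14, adjusted p = 0.067). CDKN1C, which encodes the cell cycle inhibitor p57, was the only one of 14 CDK inhibitors, G1 cyclins and MYC that was called, at 12.2 and 11.3 TPM against 2.23 and 2.26 TPM (log2 difference 2.43, SE 0.25, adjusted p = 2.8e-19). Of 22 p53 target genes 7 [0 to 3] were lower in STAT3i and 0 [0] were higher, with a median of -0.40. MDM2, the ubiquitin ligase of p53, was at 48.9 and 43.8 TPM and 81.8 and 45.5 TPM (log2 difference -0.73, SE 0.15, adjusted p = 4.1e-05), and was not called without STAT3i replicate 2 (adjusted p = 0.022) or JUNBi replicate 1 (0.066). CDKN1A, the inhibitor p21, was at -0.41 (SE 0.16, adjusted p = 0.088). The p53-induced antiproliferative gene BTG2 differed by -1.08 (SE 0.22) and was not called without STAT3i replicate 1 (adjusted p = 0.018), STAT3i replicate 2 (0.011) or JUNBi replicate 1 (0.043). Of 26 cholesterol and fatty acid synthesis genes 1 [0] was higher and 1 [0 to 1] was lower. Of 22 apoptosis genes DESeq2 called only BIRC3, while edgeR called 2 lower. No member was called by DESeq2 among 5 luminal, 3 fibroblast and 2 endothelial markers tested. PECAM1, an endothelial marker of low level, was called lower in STAT3i by edgeR (adjusted p = 0.0031). Its DESeq2 log2 difference was -1.87 (SE 0.57, adjusted p = 0.015). Among 6 RNAs without a poly(A) tail, a check on library preparation, RPPH1 alone was called, with a difference of -0.43 (SE 0.12) that edgeR did not call (adjusted p = 0.13).

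**Figure D3:**
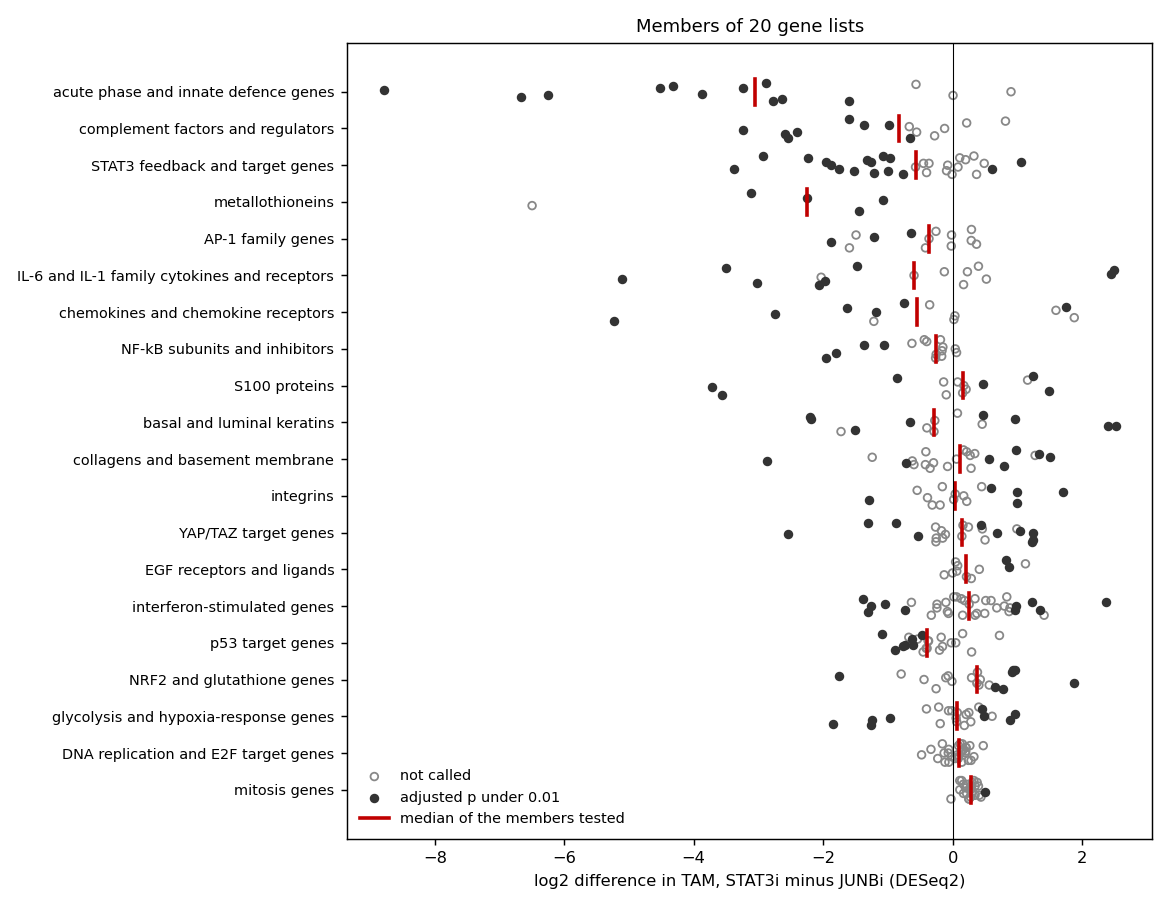
DESeq2 log2 difference under TAM, STAT3i minus JUNBi (horizontal axis), for the tested members of 20 gene lists (rows). Filled points passed an adjusted p under 0.01, open points did not, and red bars are medians. The acute phase median (-3.06), the metallothionein median (-2.25) and the complement median (-0.83) lie left of 0, while replication and mitosis genes cluster near 0. The metallothionein point farthest left is an open one with 0 counts in 1 group, where the fitted value is no bound.

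The same contrast was taken in the 4 ETH libraries, which share none with TAM. There 122 of 15260 genes were higher in STAT3i (0.799%) and 137 were lower (0.898%). The replicates were less alike, since log2 ratios of one replicate to the other had an SD of 0.483 in STAT3i and 0.682 in JUNBi, against 0.273 and 0.308 under TAM, and edgeR called 0 genes where DESeq2 called 259 (2147 genes had an unadjusted edgeR p under 0.05). Of the 473 genes higher in STAT3i under TAM, 467 were tested under ETH. The sign was the same for 354 of them (75.8%, against 51% of all genes), and 45 were also called in that direction, which is 9.51% of the TAM list and 36.9% of the ETH list, while 9 were called in the opposite one. Of the 455 lower genes, 413 were tested, 336 kept the sign (81.4%, against 49% of all genes), 54 were also called lower (11.9% of the TAM list and 39.4% of the ETH list) and 2 were called higher. Acute phase and complement genes were among those shared. Of 11 acute phase genes tested under ETH 6 were lower and 0 were higher (median -2.01), and of 14 complement genes 6 were lower and 0 were higher (median -1.02). C1R was at 3.05 and 2.46 TPM in STAT3i and 15.8 and 19.6 TPM in JUNBi under ETH (log2 difference -2.75, SE 0.33, adjusted p = 5.5e-13), SAA2 at 48.1 and 50.1 TPM in STAT3i and 431 and 373 TPM in JUNBi (log2 difference -2.90, SE 0.27, adjusted p = 7.3e-24), and IL1B, on the higher side, at 15.3 and 15.7 TPM in STAT3i and 4.34 and 4.36 TPM in JUNBi (log2 difference 1.79, SE 0.33, adjusted p = 2.3e-05). Proliferation genes were on the higher side under ETH. All 30 replication genes tested had a positive difference, from 0.26 to 1.14 with a median of 0.84, and 2 were called higher, while all 26 mitosis genes lay between 0.61 and 1.23 with a median of 0.99, and 6 were called higher.

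In MDA-MB-231, where 88 of 7747 genes were higher in STAT3i (1.14%) and 27 were lower (0.349%), the shares with the same sign were nearer to those of all genes. Of 254 tested genes that were higher under TAM, 170 had the same sign (66.9%, against 50.7% of all genes), 21 were called higher and 4 were called lower. Of 220 tested genes that were lower, 131 had the same sign (59.6%, against 49.3% of all genes), 8 were called lower and 3 were called higher. No acute phase gene and no complement gene was called there by DESeq2, with 7 and 6 tested. C3 was at 706 and 582 TPM in STAT3i and 565 and 567 TPM in JUNBi, and SAA2 at 480 and 409 TPM and 633 and 706 TPM. IL1B was higher in STAT3i in this line as well, at 18.4 and 18.8 TPM against 8.12 and 11.6 TPM (log2 difference 1.07, SE 0.26, adjusted p = 0.0031), and IL6 was lower, at 15 and 15.1 TPM against 33.7 and 39.4 TPM (log2 difference -1.10, SE 0.25, adjusted p = 0.0013).

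Whether the contrast differed between TAM and ETH was tested as an interaction over the 8 ER-Src libraries. Of 16234 genes tested, 117 had a positive TAM minus ETH difference (0.721%) and 68 a negative one (0.419%), though edgeR called 3. All 4 metallothioneins called under TAM were on the negative side. MT1X, lower in STAT3i under TAM, was at 41.4 and 42.8 TPM in STAT3i and 44.8 and 41.9 TPM in JUNBi under ETH, and its contrast differed between treatments by -3.06 (SE 0.26, adjusted p = 5.2e-27). Of 4 metallothioneins tested under ETH 1 was higher and 0 were lower. TNC was called in neither direction under ETH alone, at 0.6 and 0.32 TPM in STAT3i and 0.06 and 0.06 TPM in JUNBi under ETH, with a TAM minus ETH difference of -5.28 (SE 0.50, adjusted p = 1.4e-22). IL24 was at 0.45 and 1.02 TPM in STAT3i and 0.31 and 0.16 TPM in JUNBi under ETH, and differed by -4.22 (adjusted p = 2.2e-08). On the positive side KRT15 was lower in STAT3i under ETH, at 53.6 and 32.2 TPM against 226 and 248 TPM, and higher under TAM, so that its contrast differed by 4.66 (SE 0.45, adjusted p = 6.5e-22). CDKN1C did likewise, at 3.97 and 4.46 TPM against 15.3 and 25.6 TPM under ETH, with a difference of 4.83 (SE 0.55, adjusted p = 3.2e-15). SOCS3 was at 0.39 and 0.6 TPM in STAT3i and 1.15 and 1.59 TPM in JUNBi under ETH, and its contrast was more negative under TAM (-1.88, adjusted p = 0.0025).

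**Figure D4:**
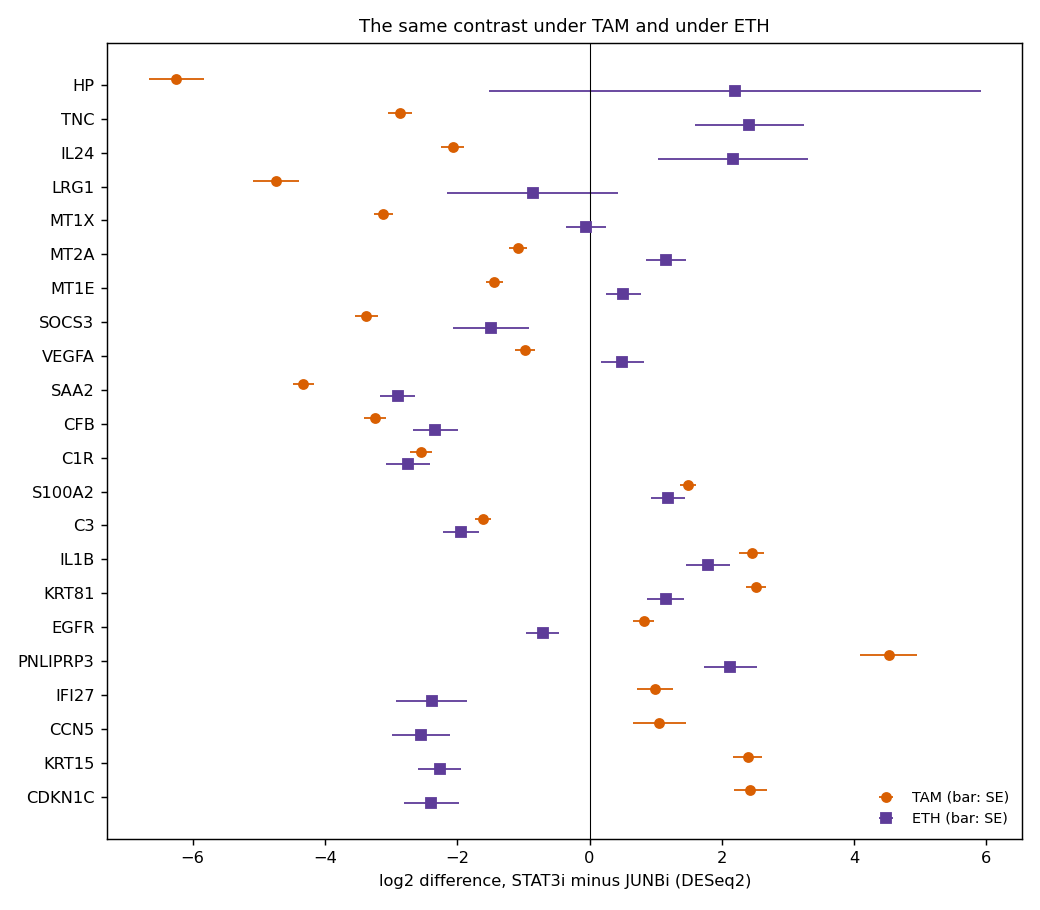
DESeq2 log2 difference, STAT3i minus JUNBi (horizontal axis), under TAM (circles) and under ETH (squares) with bars of 1 SE, for 22 named genes ordered by their TAM minus ETH difference. Complement genes C1R and C3 lie at about the same place in both treatments, HP has a wide bar under ETH, and KRT15 and CDKN1C lie on opposite sides of 0.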

How the data were processed

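RNA-seq libraries were made by the authors with a TruSeq Ribo Profile kit, and reads were aligned with STAR to GENCODE 30 on hg38 keeping up to 20 alignments per read. The authors then ran RSEM per library, and the deposited tables hold an expected count and a TPM value for each gene. RSEM divides a read that fits several genes by probability, and whether strand was used is not given in the sources used here. Here 746 identifiers outside Ensembl were left out of 61471, expected counts were rounded, and each contrast was fitted alone with DESeq2 1.42.0 (Wald test, default settings, adjusted p under 0.01) in R 4.3.3, as in the methods of the study. TPM per library gave levels only. TPM is scaled by effective gene length, so ratios of TPM can depart from fitted differences. Symbols and coordinates came from GENCODE 44, which matched 93.1% of identifiers. Alternatives were edgeR 4.0.16 (quasi-likelihood), TMM size factors, a mean count of at least 10, no independent filtering, the replicate number as a block, 1 fit over 10 groups and each library left out. The scripts were tested on simulated data. Named genes were the targets, the 12 protein-coding genes with the largest difference each way (mean normalised count of at least 100, groups not overlapping), 3 called members and the first member of each of 39 lists, and the 4 largest TAM minus ETH differences each way. The comparison, genes and lists were chosen with earlier results of these data known. Some genes that the rule chose are not reported here. ORM1 was singled out after its values were seen. With 2 libraries a group no permutation test can reach p = 0.05.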

Additional observations from a re-analysis of the deposited data

Results flagged for a closer look

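The STAT3i minus JUNBi difference was itself different under TAM and ETH for 32 named genes by the DESeq2 interaction test over 8 libraries, at an adjusted p under 0.01. Over all 16234 genes tested the shares were 0.721% positive and 0.419% negative. The naming rule took the 4 largest such differences each way and the largest differences under TAM. The count of 32 is raised by that choice and only describes these genes. Numbers in brackets are the TAM minus ETH differences on the log2 scale. Among inflammatory and STAT3-induced genes they were negative for HP (-8.58), LRG1 (-3.83), SAA2 (-1.42), S100A9 (-3.52), SOCS3 (-1.88), FOS (-2.23) and IL24 (-4.22). For HP the ETH difference had an SE of 3.72, at 0.21 and 0 TPM in STAT3i and 0 and 0.01 TPM in JUNBi. Metallothioneins were negative throughout, in MT1X (-3.06), MT1F (-3.36), MT2A (-2.24) and MT1E (-1.95). Matrix and adhesion genes went both ways, with TNC (-5.28), SERPINE2 (-2.07) and ITGB6 (-1.71) negative and LAMA3 (0.95), CDH1 (1.04) and AJUBA (1.30) positive. Keratins also did, with KRT15 (4.66) and KRT81 (1.37) positive and KRT6B (-2.27) negative. On the positive side were further PNLIPRP3 (2.40), ANKRD2 (2.57), CSF1R (3.44), TINAGL1 (1.86), PSCA (2.04), CDKN1C (4.83) and CCN5 (3.60), the interferon-stimulated IFIT1 (3.19) and IFI27 (3.37), and the receptor EGFR (1.54). The remaining negative ones were VEGFA (-1.47) and DUSP6 (-1.25). The count rests on the tool, since edgeR called 3 interactions over all genes where DESeq2 called 185. Without the TAM library of STAT3i replicate 2 the DESeq2 count was 88, and without the ETH library of JUNBi replicate 1 it was 299.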

How the results depend on the processing

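The count under TAM (928) was within 1.5 times of its value with edgeR (847), TMM size factors (932), a mean count of at least 10 (964), no independent filtering (784) and 1 fit over all 10 ER-Src groups (1129). With a library left out it was 406 to 461 under TAM, 51 to 260 under ETH, 30 to 68 in MDA-MB-231 and 88 to 299 for the TAM minus ETH difference. edgeR called 0 genes under ETH, 56 in MDA-MB-231 and 3 for the TAM minus ETH difference, and 1 fit over all groups called 1884 under ETH and 560 for that difference. The cause was not tested. A replicate block gave 769 under TAM, 1044 under ETH, 132 in MDA-MB-231 and 487 for the TAM minus ETH difference. Same-numbered libraries deviated together (r = 0.384, 0.650 and 0.243), but 2 pairs do not show a pairing, and the labels name none. Of the 121 named genes 100 were called, 70 of them in every alternative, 28 lost the call without some library, and no called gene reversed. The block took the call from 1. Genes that were not called changed sign with a library left out in 3 cases, CDH1 (-0.032 to 0.10), HMGCS1 (-0.016 to 0.30) and ESR1 (-0.19 to 0.39). With 2 libraries a group, small differences and genes of few counts stay below what these data can show.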

Other observations

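Genes outside the naming rule were looked at after their values were seen, within the lists described above. SAA1, the partner of SAA2, differed by -2.63 (SE 0.16), LCN2, the siderophore-binding lipocalin-2, by -2.88 (SE 0.66), and SERPINA1, alpha-1-antitrypsin, by -2.77 (SE 0.17) on the log2 scale under TAM, all lower in STAT3i. SLPI, the secretory leukocyte protease inhibitor, differed by 0.01 (SE 0.18, adjusted p = 0.99).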
